A study of Mus musculus with 8 samples.

Results

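The 10 genes described here are the stress-response regulator p53 (Trp53), its inhibitors Mdm2 and Mdm4, its target genes Cdkn1a, Ccng1, Trp53inp1 and Sesn1, and the growth-arrest and DNA-damage genes Gadd45a, Gadd45b and Gadd45g. They were followed in NIH3T3 cells, a single immortalised line of mouse embryo fibroblasts, after serum stimulation with and without the adenosine analogue cordycepin. Every probe that carried a member's gene name and was not a control was taken, which gave 13 probes for the 10 genes, out of 55681 probes and 35715 gene names on the array. All 13 were well above background on all 8 arrays and none was saturated, so no member's value is a bound.

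Cells on 15 cm plates were grown with 10% newborn bovine serum and then held for 24 h in 0.5% of it. The no serum group, with 2 arrays, received DMSO at 0.1% and no further serum. The serum group, with 3 arrays, received the same DMSO and, 60 min later, 0.1 volume of newborn bovine serum for 30 min. The cordycepin plus serum group, with 3 arrays, received 20 µM cordycepin for 90 min, with serum for the last 30 min, and no arrays with cordycepin but without serum were analysed here.

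p53 is a transcription factor that accumulates when DNA is damaged or transcription is disturbed, and it switches on genes that arrest the cell cycle, repair DNA or start cell death. Mdm2, itself a p53 target, marks p53 for degradation, and its relative Mdm4 binds p53 and blocks its activity, so that the pathway limits itself. The Gadd45 proteins are small acidic proteins that bind stress kinase activators and cell cycle proteins. Gadd45a is the classical p53 target among them, while Gadd45b and Gadd45g are known for fast induction by growth factors and cytokines. Cordycepin is 3′-deoxyadenosine, which lacks the hydroxyl group that an RNA chain or a poly(A) tail needs to be extended.

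The promoters of the Gadd45 genes are shown because these are the members that changed, with that of a Cdkn1a transcript for comparison. Each line holds the 250 bases before the transcription start, 5′ to 3′ on the gene's strand, from RefSeq in build GRCm38.p6. Capitals mark the sequence TATAAA in Gadd45b and Gadd45g, and a p53 decamer in Gadd45a and Cdkn1a, the short repeat of which p53 response elements are built. Of the Cdkn1a promoters, the one shown was the upstream one, and it alone held the decamer. The regions are chr6:67037408-67037657 on the minus strand for Gadd45a, chr10:80929841-80930090 on the plus strand for Gadd45b, chr13:51846425-51846674 on the plus strand for Gadd45g and chr17:29090729-29090978 on the plus strand for Cdkn1a.
Gadd45a: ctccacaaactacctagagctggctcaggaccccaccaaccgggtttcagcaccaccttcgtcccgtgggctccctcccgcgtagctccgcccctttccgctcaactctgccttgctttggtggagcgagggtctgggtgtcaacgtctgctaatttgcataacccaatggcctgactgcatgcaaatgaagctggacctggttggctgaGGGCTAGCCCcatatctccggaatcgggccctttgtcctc
Gadd45b: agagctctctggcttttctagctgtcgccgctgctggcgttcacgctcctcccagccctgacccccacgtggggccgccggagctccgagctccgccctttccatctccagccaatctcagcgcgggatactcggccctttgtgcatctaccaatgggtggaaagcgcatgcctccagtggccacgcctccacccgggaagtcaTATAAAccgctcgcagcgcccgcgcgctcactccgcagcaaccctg
Gadd45g: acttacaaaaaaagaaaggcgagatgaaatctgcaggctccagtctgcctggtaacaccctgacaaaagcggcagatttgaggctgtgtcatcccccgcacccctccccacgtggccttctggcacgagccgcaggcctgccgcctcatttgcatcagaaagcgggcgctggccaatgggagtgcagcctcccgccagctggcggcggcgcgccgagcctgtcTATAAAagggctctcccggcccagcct
Cdkn1a: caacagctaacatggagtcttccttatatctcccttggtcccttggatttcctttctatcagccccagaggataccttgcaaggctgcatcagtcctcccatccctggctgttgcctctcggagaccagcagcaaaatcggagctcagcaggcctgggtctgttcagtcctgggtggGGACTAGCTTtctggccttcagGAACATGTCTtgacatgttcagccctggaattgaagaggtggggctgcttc

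Promoters of 9 of the 10 genes matched by symbol, 12 in all, since Mdm4, Sesn1 and Cdkn1a each had more than 1. TATAAA stood 46 to 41 bases before the start of Gadd45b and 27 to 22 bases before that of Gadd45g. Its only other match in a member promoter was 248 to 243 bases before the start of Trp53, on the opposite strand. On either strand it was found in 12.4% of all 32851 RefSeq promoters of this length. The p53 decamer was present in 6 of the 12 member promoters, namely 1 promoter each of Gadd45a, Sesn1, Mdm2, Ccng1, Trp53 and Cdkn1a, and in 7.13% of all promoters. In Gadd45a it lay 40 to 31 bases before the start, and the Cdkn1a promoter shown held it at 73 to 64 and at 51 to 42 bases. None of the 12 held the CArG box bound by serum response factor (1.47% of all promoters), the NF-kB site (7.25%) or the cyclic AMP response element (1.55%). The sequence TGANTCA, bound by Fos and Jun, was in 1 promoter of Mdm4 (6.75% of all), GGGCGG was in 6 of 12 (32.7% of all) and CCAAT in 8 of 12 (33.8% of all). The motifs did not overlap each other except for the shared bases of GGGCGG repeats, and a match describes letters, not a bound site.

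The middle 30 bases of 4 probes are given because they are what the array measured for the Gadd45 genes and for Trp53.
Gadd45a: caaagcactgcaagaaagaaaactgctaat
Gadd45b: ggaacgctgagacccactccaaacatctaa
Gadd45g: ctgctctttcaaaaaacggatcccgggcaa
Trp53: atgcccatgctacagaggagtctggagaca

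In build mm9, per the array's own annotation, the whole probes lay at chr6:66985376-66985435 on the minus strand for Gadd45a, at chr10:80394367-80394426 on the plus strand for Gadd45b and at chr13:51943733-51943792 on the plus strand for Gadd45g. The Trp53 probe was placed at chr17:54560025-54560084 on the plus strand, whereas the Trp53 promoter lies on chromosome 11. RefSeq lists a Trp53 pseudogene on chromosome 17, so signal from the gene and from the pseudogene cannot be told apart on this probe. Of the 2 Mdm4 probes, that at chr1:134888407-134888466 was on the gene's chromosome and that at chrX:124799082-124799141 was on the chromosome of an Mdm4 pseudogene. The chromosome X probe was the brighter, so Mdm4 was counted by it. The exon or untranslated region under each probe was not analysed here.

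Each value below is the log2 processed signal of a probe minus the 75th percentile of its array, so that 0 is the brightness of that percentile and each further unit is a doubling. This percentile ranged from 350.5 to 802.2 in signal over the 8 arrays. Signals well above background were found at 51.1% to 57.1% of probes. Arrays of a group correlated at 0.988 to 0.992 across probes, and cordycepin arrays correlated with the others at 0.978 to 0.985. A probe was called where limma gave a Benjamini-Hochberg adjusted p under 0.05 over the 30859 probes tested and the change was 1 log2 unit or more in either direction. The 9 fibroblast markers, among them collagens and vimentin, were all measured and none was called in any comparison, while 5 of the 6 markers of epithelial, blood and endothelial cells did not pass the background filter and Pecam1 was dim. The immediate-early gene Fos rose by 4.86 ± 0.29 (SE, limma adjusted p = 0.000209) with serum, which checks the stimulation.

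Serum raised Gadd45b and Gadd45g, and no member was called lower. Called members were 2 of 10 higher, where 0.849% of all probes tested were called higher, and 0 of 10 lower, where 0.878% of all probes were called lower. The median change of the members was 0.02 on the log2 scale and that of all probes tested was −0.02, while the median size of change, sign removed, was 0.41 in the members and 0.12 in all probes. By bare values of the brightest probes, 4 members lay above no serum on every serum array (Mdm2, Cdkn1a, Gadd45b and Gadd45g). Another 3 lay below it on every one (Trp53, Sesn1 and Gadd45a). Of all probes tested, 9.71% lay above and 13.6% below, 23.3% in all. The second Cdkn1a probe overlapped, and the Mdm4 probe placed on chromosome 1 lay above no serum on every serum array.

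Gadd45g, an inhibitor of cell cycle progression that also activates stress kinase signalling, had values of 4.28 and 4.51 without serum and of 7.28, 7.23 and 6.84 with serum. All serum arrays were far above both arrays without serum. In processed signal these were 12558 to 15541 without serum and 68200 to 97425 with serum. The rise was 2.72 ± 0.18 (SE) on the log2 scale, 6.61-fold, with a limma adjusted p of 0.000358. It was called in all 18 alternative settings tried, at 2.44 to 2.86. The settings without a minimum fold and with unadjusted p only relax the rule, so they cannot lose a call. The mean of all probes leaves a gene with a single probe unchanged.

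Gadd45b, a stress sensor of the same family with a known role in survival signalling, had values of 2.27 and 1.96 without serum and of 3.24, 3.36 and 3.02 with serum. The groups did not overlap. The rise was 1.09 ± 0.16 (SE), 2.13-fold, with a limma adjusted p of 0.0142. The call was lost without serum replicate 1, at 1.07 and an adjusted p of 0.0509, and without no serum replicate 2, at 0.93 and 0.12. It was also lost with probes of all intensities tested, at an adjusted p of 0.0787, and with arrays centred on the spike-in controls, at 0.81 and an adjusted p of 0.924.

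Gadd45a had values of 1.29 and 1.53 without serum and of 0.78, 0.09 and 0.91 with serum. Every serum array was lower than both arrays without serum, although serum replicate 2 stood apart from the other two. The change was −0.82 ± 0.27 (SE), with a 95% interval of −1.45 to −0.19, and was not called (limma adjusted p = 0.270). In 9 exact two-sided permutation tests of the difference in change between pairs of Gadd45 genes, the change with serum was larger in Gadd45g than in Gadd45b by 1.64 and larger in Gadd45g than in Gadd45a by 3.54. Both exact tests gave p = 0.2, the smallest that 3 against 2 arrays can give, and 0.2 after Benjamini-Hochberg adjustment.

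Cdkn1a encodes p21, the cyclin-dependent kinase inhibitor through which p53 arrests the cell cycle. On its brightest probe it had values of 3.12 and 2.80 without serum and of 3.57, 3.44 and 3.62 with serum. All serum arrays were higher, with a difference of 0.59 ± 0.19 (SE) and a 95% interval of 0.15 to 1.02, but it was not called (limma adjusted p = 0.241). The second Cdkn1a probe, which lists a different transcript, differed by −0.09 with an interval of −0.73 to 0.55.

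Mdm2 had values of 4.08 and 4.45 without serum and of 4.79, 4.80 and 4.59 with serum. Again all serum arrays were higher, by 0.46 ± 0.15 (SE) with an interval of 0.12 to 0.81, and the difference was not called (limma adjusted p = 0.246). Trp53 had values of −0.15 and −0.01 without serum and of −0.18, −0.59 and −0.55 with serum. Here the serum arrays were lower by 0.36, and the interval of the change, −1.06 to 0.34, included 0. For Mdm4, Ccng1, the atypical cyclin G1, Trp53inp1, a pro-apoptotic nuclear protein, and Sesn1, a stress-induced inhibitor of TORC1 signalling, the differences on the brightest probes were between −0.16 and 0.03, and all 4 intervals included 0. The Mdm4 probe placed on chromosome 1 differed by 0.17, with an interval of −0.20 to 0.54.

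**Figure D1:**
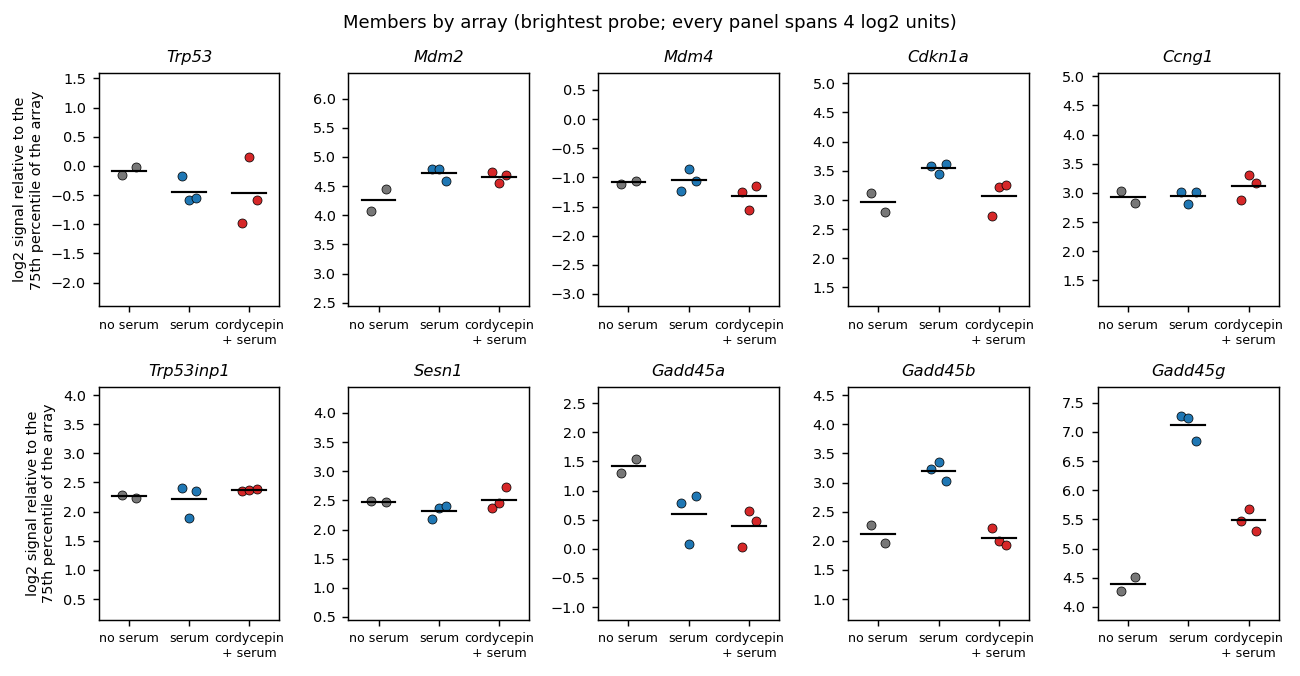
Log2 signal of each member's brightest probe relative to the 75th percentile of its array (vertical axes, each 4 log2 units long with its own origin) in the no serum (grey, n = 2), serum (blue, n = 3) and cordycepin plus serum (red, n = 3) groups, with 1 point per array and a line at the group mean. Gadd45g stood at 4.28 to 4.51, 6.84 to 7.28 and 5.30 to 5.68 in these groups, and Gadd45b was high only with serum alone, while Gadd45a was highest without serum.

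With cordycepin before serum, Gadd45b and Gadd45g were lower than with serum alone, and no member was called higher. Called members were 2 of 10 lower, where 2.87% of all probes tested were called lower, and 0 of 10 higher, where 7.63% of all probes were called higher. The median change was −0.14 in the members and 0.10 in all probes tested, and the median size of change was 0.20 and 0.23. Cdkn1a, Gadd45b and Gadd45g lay below the serum group on every cordycepin array, and no member lay above it on every one, where 39.9% of all probes did not overlap in either direction. In bulk RNA, fewer cells with a transcript and less of it per cell cannot be told apart.

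Gadd45g had values of 5.47, 5.68 and 5.30 with cordycepin plus serum, against 7.28, 7.23 and 6.84 with serum. No cordycepin array came near the serum arrays, and the processed signals were 15527 to 29803 against 68200 to 97425. The change was −1.63 ± 0.16 (SE), with a 95% interval of −2.01 to −1.26 and a limma adjusted p of 0.000245, and it was called in all 18 alternatives at −1.77 to −1.54.

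Gadd45b had values of 2.21, 2.00 and 1.94 with cordycepin plus serum, against 3.24, 3.36 and 3.02 with serum, again without overlap. The change was −1.16 ± 0.14 (SE), 2.23-fold lower, with a limma adjusted p of 0.000773. It was called in 17 of 18 alternatives and lost only with centring on the spike-in controls, at −1.24 and an adjusted p of 0.145. With that centring the SE was 0.50 for every member, and the change of Gadd45b itself was not smaller.

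Gadd45a was not called in this comparison, with values of 0.04, 0.64 and 0.48 against 0.78, 0.09 and 0.91. These groups overlapped, and the change was −0.21 ± 0.24 (SE) with a 95% interval of −0.77 to 0.36 (limma adjusted p = 0.594). In the exact permutation tests of pairs, the change of Gadd45g minus that of Gadd45a was −1.43 and minus that of Gadd45b was −0.48, each with p = 0.1, the smallest that 3 against 3 arrays can give, and 0.2 after adjustment over the 9 tests. Gadd45b against Gadd45a, with a difference of −0.95, gave an exact permutation p = 0.2 and 0.2 adjusted.

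Cdkn1a had values of 2.73, 3.23 and 3.25 with cordycepin plus serum against 3.57, 3.44 and 3.62 with serum. All cordycepin arrays were lower, with a change of −0.48 ± 0.17 (SE) and an interval of −0.86 to −0.09, yet the change was not called (limma adjusted p = 0.0909). Its second probe changed by −0.08, with an interval of −0.65 to 0.49.

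Trp53 varied widely among the cordycepin arrays, at −0.98, 0.16 and −0.59, and its change from serum was −0.03 with an interval of −0.65 to 0.59. Mdm2 was at 4.75, 4.56 and 4.69, overlapping the serum arrays, and its change of −0.06 had an interval of −0.37 to 0.25. These intervals lay within 1 log2 unit of 0, so a change of the size called for Gadd45b or Gadd45g was outside them. For Trp53 this holds for the probe's signal, in which the gene and its pseudogene cannot be told apart. The Mdm4 probe placed on chromosome X changed by −0.27 and that on chromosome 1 by −0.36, with limma adjusted p of 0.252 and 0.128. The p53 targets Ccng1, Trp53inp1 and Sesn1 changed by 0.17, 0.15 and 0.20 on their brightest probes, with intervals that included 0 and reached no further than 0.50.

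**Figure D2:**
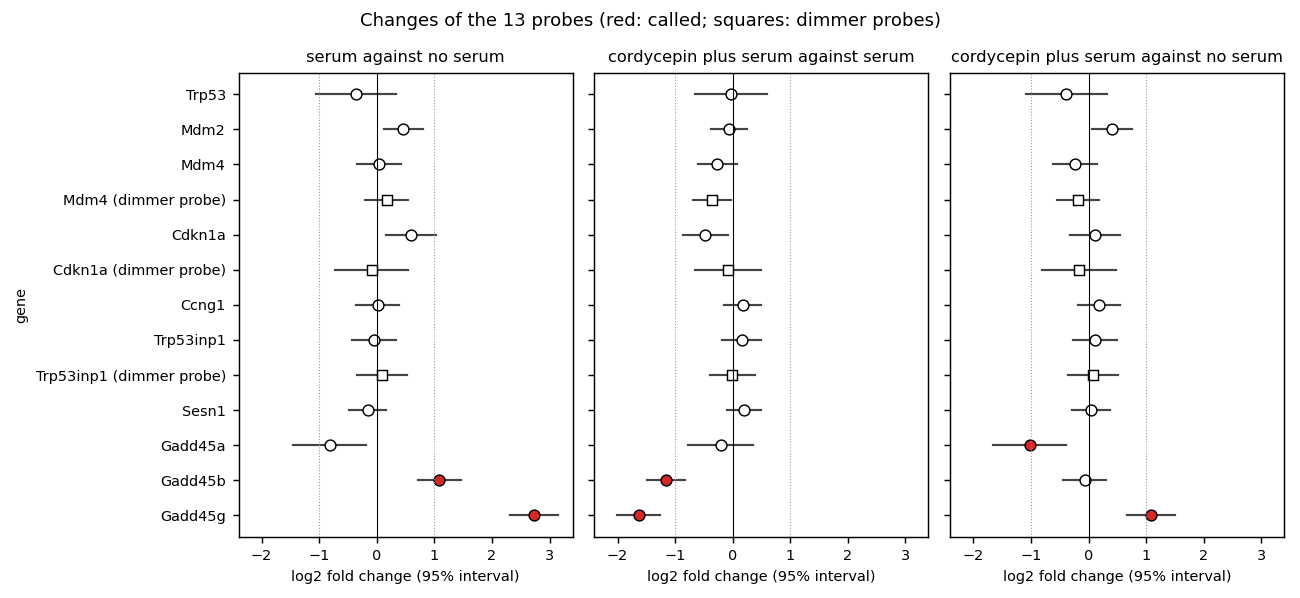
Log2 fold change (horizontal axis) of each of the 13 probes in the 3 comparisons, with 95% intervals from limma as lines, circles for the brightest probe of a gene, squares for dimmer probes of the same gene, red where called and dotted lines at a log2 fold change of 1 in size. Gadd45b and Gadd45g were called at 1.09 and 2.72 with serum and at −1.16 and −1.63 with cordycepin, while against no serum Gadd45g at 1.09 and Gadd45a at −1.03 were called with cordycepin plus serum. The points of the other 7 genes lay inside the dotted lines throughout, although some intervals of Trp53 and Cdkn1a crossed them.

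Against starved cells without added serum, Gadd45g was called higher and Gadd45a lower with cordycepin plus serum. Called members were 1 of 10 higher, where 6.48% of all probes tested were called higher, and 1 of 10 lower, where 2.99% of all probes were called lower. Each count is within 1 gene of what these shares give for 10 genes, so it is not read as a trait of the members. The median change was 0.07 in the members and 0.08 in all probes, with a median size of 0.21 and 0.23. By their brightest probes, Mdm2, Trp53inp1 and Gadd45g lay above both arrays without serum on every cordycepin array. Mdm4 and Gadd45a lay below both. Of all probes, 29.2% lay above and 16.0% below, 45.3% in all. The members' share is near that and is not read as a trait of the members. The dimmer Trp53inp1 probe and the Mdm4 probe placed on chromosome 1 overlapped the arrays without serum. The 3 comparisons share arrays, so their values are set side by side and not taken as separate evidence.

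Gadd45g, at 5.30 to 5.68 against 4.28 and 4.51, was 1.09 ± 0.18 (SE) higher, 2.13-fold, with a limma adjusted p of 0.00485. The call was lost without cordycepin plus serum replicate 2, at 0.99, and without no serum replicate 1, at 0.97. It was also lost with quantile normalisation, at 0.98, and with centring on the spike-in controls, at 0.72 and an adjusted p of 0.915. In log2 units, 40.0% of the rise of Gadd45g with serum was present with cordycepin plus serum, and the order of its levels was no serum, then cordycepin plus serum, then serum, with called differences between neighbours.

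Gadd45b, at 1.94 to 2.21 against 2.27 and 1.96, overlapped the arrays without serum, with a change of −0.07 and an interval of −0.44 to 0.30. By the group means none of its rise with serum was present, as the remaining share was −6.21% of it. The interval reaches 0.30 beside a rise of 1.09, so a small remaining part is not excluded. Its levels without serum and with cordycepin plus serum did not differ beyond their spread, and the serum group was above both.

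Gadd45a, at 0.04 to 0.64 against 1.29 and 1.53, was lower on every cordycepin array. The change was −1.03 ± 0.27 (SE), 2.04-fold lower, with a limma adjusted p of 0.0405. This call held in 7 of 18 alternatives, with changes of −1.39 to −0.85. The call could not be lost without a minimum fold or with unadjusted p, and the mean of all probes left this single-probe gene unchanged. Leaving out serum replicate 2 or 3 did not alter the change itself, and the call held. Leaving out any cordycepin array, serum replicate 1 or either array without serum ended it, with changes of −0.85, −1.15 and −1.07 without cordycepin replicates 1, 2 and 3, of −1.03 without serum replicate 1, and of −1.15 and −0.91 without no serum replicates 1 and 2. The call was also lost with a replicate block, at −1.13. Its levels with serum and with cordycepin plus serum did not differ beyond their spread, and the group without serum had the highest values.

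Of the p53 genes, Mdm2 was 0.40 ± 0.15 (SE) higher with an interval of 0.06 to 0.74, and was not called (limma adjusted p = 0.127). Cdkn1a differed by 0.11, with an interval of −0.32 to 0.55. Trp53 differed by −0.39 with an interval of −1.09 to 0.31. Mdm4, Ccng1, Trp53inp1 and Sesn1 differed by −0.24, 0.18, 0.11 and 0.04 on their brightest probes, with intervals that included 0. The Mdm4 probe placed on chromosome 1 differed by −0.19, with an interval of −0.55 to 0.18.

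**Figure D3:**
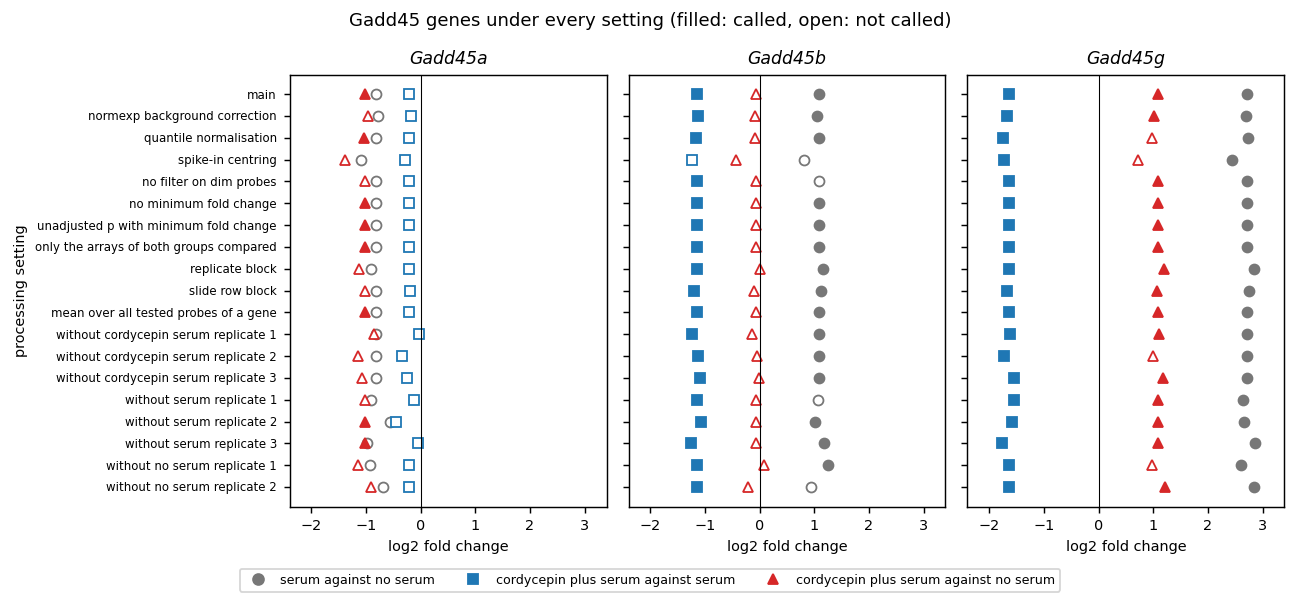
Log2 fold change (horizontal axis) of Gadd45a, Gadd45b and Gadd45g under each processing setting (vertical axis), for serum against no serum (grey circles), cordycepin plus serum against serum (blue squares) and cordycepin plus serum against no serum (red triangles), filled where called. Gadd45g against serum spans −1.77 to −1.54 and is filled throughout, whereas Gadd45a against no serum spans −1.39 to −0.85 and is filled in 7 of the 18 alternatives.

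The wider pathway was read from lists of 31 further p53 target genes, of 24 regulators and relatives of p53 and of 7 partners of the Gadd45 proteins. Of the p53 targets, 30 were on the array and 27 were tested. With cordycepin plus serum against serum, 3 of the 27 were called lower (Btg2, Plk3 and Plk2) and 0 higher, where 2.87% of all probes were called lower and 7.63% higher, with a median change of −0.22 against 0.10 in all probes tested. With serum, 3 were called higher (Btg2, Plk3 and Pmaip1) and 0 lower, where 0.849% and 0.878% of all probes were, with a median of 0.03 against −0.02. Cordycepin plus serum against no serum gave 0 higher and 1 lower (Bbc3), with a median of −0.06 against 0.08. That count of 1 in 27 is near the 2.99% of all probes called lower. Genes were counted at their brightest probe, and no other tested probe of these targets was called.

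Btg2, an antiproliferative cofactor of mRNA deadenylation, was at 1.43 and 0.87 without serum, at 4.64, 4.54 and 4.58 with serum and at 1.29, 1.46 and 1.84 with cordycepin plus serum. It rose by 3.43 ± 0.21 (SE, limma adjusted p = 0.000242) with serum, and with cordycepin it was −3.05 ± 0.19 from serum (2.93e-05). Plk3, a polo-like stress kinase, was at 3.00 and 2.86 without serum, at 4.58, 5.02 and 4.62 with serum and at 2.72, 2.32 and 2.82 with cordycepin plus serum. For both genes the serum arrays stood above all others.

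The kinase Plk2 was at 2.67 and 2.89 without serum, at 3.82, 3.44 and 3.55 with serum and at 1.92, 2.28 and 1.75 with cordycepin plus serum, so that its cordycepin arrays were the lowest. Its change from serum was −1.62 ± 0.17 (SE, limma adjusted p = 0.000324), and that of Plk3 was −2.12 ± 0.18 (9.90e-05). Besides being p53 targets, Btg2, Plk2 and Plk3 are known as early mitogen-induced genes. The cell death genes Pmaip1 (Noxa) and Bbc3 (Puma) were each called in 1 comparison, Pmaip1 with serum at 1.51 ± 0.21 (SE, limma adjusted p = 0.0118) and Bbc3 in cordycepin plus serum against no serum at −1.48 ± 0.22 (0.00284). In the latter comparison Pmaip1 was at 0.99 ± 0.21 (0.0155), short of the called size, and Bbc3 was at −0.90 ± 0.20 (0.0140) against serum. The Pmaip1 probe was dim, though well above background on all 8 arrays. It was at −4.84 and −4.33 without serum, at −3.10, −3.37 and −2.77 with serum and at −3.47, −3.64 and −3.68 with cordycepin plus serum. The Pmaip1 call was lost without no serum replicate 1, at 1.26, and with normexp background correction, at 0.68. It was also lost with centring on the spike-in controls, at 1.23, and with probes of all intensities tested.

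Of the regulators, 23 of 24 were tested, and the only call at a brightest probe was Chek1, a checkpoint kinase that acts when DNA replication stalls. Chek1 was at −3.46, −3.88 and −3.46 with cordycepin plus serum, at −5.51, −4.50 and −4.56 with serum and at −5.21 and −5.56 without serum. The cordycepin arrays were highest, by 1.25 over serum and by 1.78 over no serum. The probe was dim, being well above background on 3 of 3 cordycepin, 2 of 3 serum and 1 of 2 no serum arrays, so that it entered the test through the group where it was high and these differences are a description. The count of 1 in 23 was below the 7.63% and 6.48% of all probes called higher in these comparisons. The call over serum was lost without cordycepin plus serum replicate 1 (1.19), replicate 3 (1.18) or serum replicate 1 (0.93), that over no serum without no serum replicate 2 (1.61), and with normexp background correction the differences were 0.53 and 0.77 and neither was called. Among further probes of the list, named here after their values were seen, a Usp7 probe was called at 1.41 over serum and 1.52 over no serum, where the brightest Usp7 probe was at −0.33 and −0.24, and a Hipk2 probe was called at −1.22 from serum, where the brightest was at −0.17. The list's median change was −0.14, 0.03 and −0.10 in cordycepin plus serum against serum, serum against no serum and cordycepin plus serum against no serum. Cdkn2a, whose Arf product inhibits Mdm2, had no probe that passed the background filter, and NIH3T3 cells are known to have lost this locus. All 7 Gadd45 partners were tested, among them the kinase Map3k4 and the replication clamp Pcna, and none was called in any comparison, with median changes of 0.03, −0.03 and −0.15 in the same order. The array's annotation placed the Pcna probe on chromosome 19. Positions of the list probes were not compared with those of their genes. At most 7.63% of all probes were called in either direction of any comparison. A count of 0 in 7 is near such shares and is not a result about the partners.

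**Figure D4:**
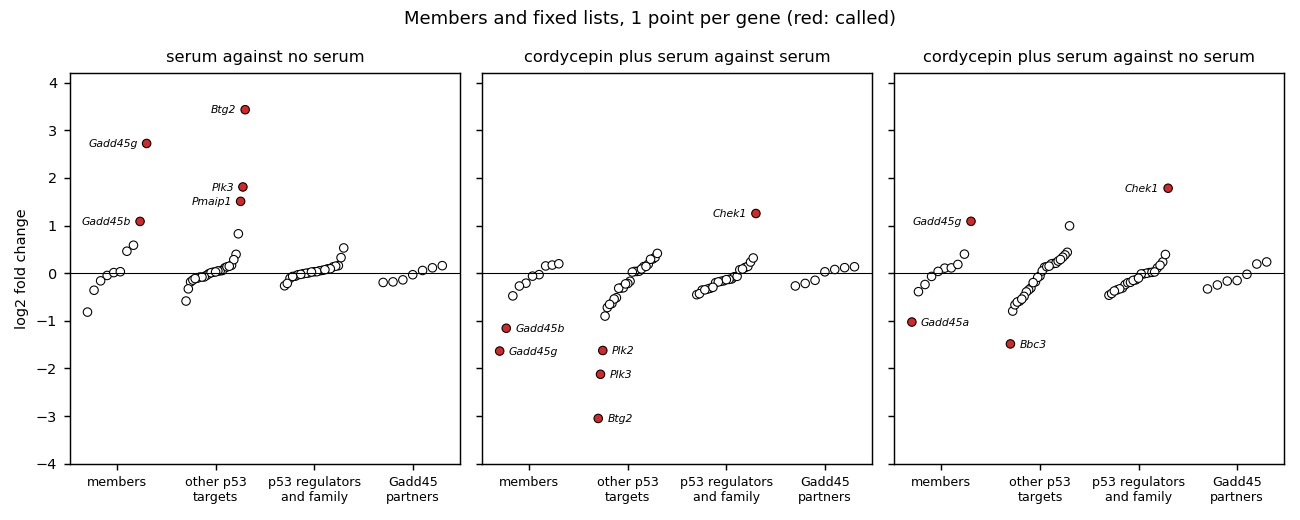
Log2 fold change (vertical axis) of the 10 members, 27 further p53 targets, 23 regulators and relatives of p53 and 7 Gadd45 partners in the 3 comparisons, with 1 point per gene at its brightest tested probe, sorted within each list, and called genes in red with their names. The called points against serum are Gadd45b and Gadd45g among the members, Btg2 at −3.05, Plk3 at −2.12 and Plk2 at −1.62 among the other targets, and Chek1 at 1.25, whose dim probe was well above background on 2 of 3 serum arrays and lost its call in 6 of 18 alternatives.

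The genes with the most similar pattern to a called member were taken by Pearson's r over the 8 arrays, among 17894 probes with a RefSeq mRNA, as a description. For Gadd45g they were Cyr61 (now Ccn1, a secreted matrix protein) at 0.998, Nppb (a natriuretic peptide) at 0.991 and Dnajb1 (a heat shock cochaperone) at 0.981. Cyr61 had mean values of 4.67 without serum, 7.79 with serum and 5.80 with cordycepin plus serum, so that it too lay between the other groups with cordycepin. For Gadd45b they were Egr3 (an early growth response factor) at 0.989, Lims2 at 0.988 and Akirin1 at 0.986. Egr3 had means of −4.21, −1.60 and −4.20 in that order, with no rise present in the means after cordycepin. The Egr3 probe was dim without serum and with cordycepin plus serum, so a small remaining rise is not excluded. For Gadd45a they were the zinc finger genes Zfp39 at 0.990 and Zfp60 at 0.981 and the lipid enzyme gene Cds2 at 0.981. The changes of these 3 were smaller than those of Gadd45a in each comparison, at −0.63, −0.44 and −0.61 in cordycepin plus serum against no serum. All points share the same 8 arrays and their scaling.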

How the data were processed

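Total RNA was labelled with a single dye and hybridised to Agilent mouse arrays of 62976 spots, of which 3671 were controls, on 1 slide. The authors scanned them and extracted spots with Feature Extraction 10.7.3.1, and the deposited values are background-subtracted processed intensity (gProcessedSignal) with the probe's gene name and mm9 position. Here control and outlier spots were left out, spots of a probe were averaged, and log2 intensity minus each array's 75th percentile was analysed by limma 3.58.1 (R 4.3.3) over all 8 arrays, each group having its own mean. Tests covered the 30859 probes that all arrays of some group called well above background, and p-values were adjusted by Benjamini-Hochberg over all of them. A gene was counted by its brightest tested probe. Limma's and the permutation tests were two-sided. The number of arrays limits the precision, and p-values measure the spread between these arrays, which the series describes as independent replicates.

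Named genes were all members, up to 6 called genes per list by size of change, the 3 genes most correlated with each called member, and Fos, Fosb, Actb and Gapdh as checks. Fosb rose by 7.91 with serum, and Actb and Gapdh were not called. The members and lists were chosen with earlier results of these data known. Alternatives were normexp background correction (offset 50), quantile normalisation, centring on spike-in controls, no filter, no minimum fold, unadjusted p, only the arrays of both groups, a replicate block, a block for the slide row, the mean of all probes and leaving out each array. The code was tested on simulated data.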

Additional observations from a re-analysis of the deposited data

How the results depend on the processing

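Gadd45g and Gadd45b kept their direction in serum against no serum and in cordycepin plus serum against serum in all 18 alternatives. Of the members called, cordycepin plus serum against serum had 2 lower, and 1 with spike-in centring. Serum against no serum had 2 higher, and 1 with spike-in centring and 1 without the background filter, and between 1 and 2 when an array was left out. Cordycepin plus serum against no serum had 1 higher, and 0 with quantile normalisation and 0 with spike-in centring, and between 0 and 1 when an array was left out. It had 1 lower, and 0 with normexp, spike-in centring, no filter, the replicate block and the slide row block, and between 0 and 1 when an array was left out. The cause was not tested. Replicate numbers gave no sign of pairing, as same-numbered arrays' deviations correlated at −0.17 to 0.23 and 1 of 3 cordycepin arrays correlated best with the serum array of its number. The arrays are too few for this check to exclude pairing. With the replicate block the Gadd45a change against no serum was −1.13 with an adjusted p of 0.059, and no other member's call changed.

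Uncalled values that changed sign were as follows. Leaving out an array gave, in cordycepin plus serum against serum, −0.3446 to 0.22 for Trp53 and −0.0132 to 0.2488 for Trp53inp1. In serum against no serum the range was −0.0654 to 0.1201 for Mdm4, −0.0884 to 0.1141 for Ccng1 and −0.1424 to 0.1197 for Trp53inp1. In cordycepin plus serum against no serum it was −0.0473 to 0.2816 for Cdkn1a, −0.0666 to 0.1112 for Sesn1 and −0.2213 to 0.0863 for Gadd45b. Spike-in centring gave −0.25 for Mdm4 and −0.27 for Ccng1 with serum, and −0.26 for Cdkn1a, −0.19 for Ccng1, −0.26 for Trp53inp1 and −0.33 for Sesn1 in cordycepin plus serum against no serum. The replicate block gave −0.0065 for Mdm4 and −0.0169 for Ccng1 with serum, and −0.0349 for Sesn1 and 0.0076 for Gadd45b against no serum. The slide row block gave −0.0019 for Mdm4 with serum. Normexp gave −0.0165 for Ccng1 with serum and −0.0096 for Sesn1 against no serum, and quantile normalisation gave −0.013 for Ccng1 with serum. The mean of all probes gave 0.0211 for Trp53inp1 with serum and −0.0292 for Cdkn1a against no serum.

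Over all probes, counts called higher and lower were 2356 and 886 in cordycepin plus serum against serum (919 to 3704 and 402 to 2271 over the alternatives), 262 and 271 in serum against no serum (62 to 392 and 59 to 611), and 1999 and 923 in cordycepin plus serum against no serum (877 to 2826 and 338 to 1837). The share of calls that were higher was 72.7%, 49.2% and 68.4%, against 59.7%, 56.7% and 58.1% with quantile normalisation, 76.0%, 28.4% and 57.1% with spike-in centring and 69.6%, 74.3% and 75.9% with normexp. Spike-in centring moved every change by −0.09, −0.28 and −0.37 in these comparisons, and quantile normalisation moved the median of all probes from 0.10 to −0.0049 in the first. With spike-in centring every member had the same SE, 0.50 in the first comparison and 0.56 in the others. Of the named genes outside the members, to which the alternatives were applied after seeing the data, Btg2, Plk2, Bbc3 and Fos kept every call, Plk3 lost that with serum under spike-in centring (1.53), Pmaip1 kept its call in 14 of 18, and Chek1 in 12 of 18 over serum and 15 of 18 over no serum. With 2 arrays without serum and 3 in each other group, the number of arrays limits what can be called.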
